A study of Mus musculus with 6 samples.

Results

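The neuronal pentraxins are a small gene family of the excitatory synapse, and all of its 3 members (Nptx1, Nptx2 and the receptor Nptxr) were present in RNA pulled down from mouse hippocampus. They were selected by gene symbol among 55416 genes of the count table, and each symbol matched 1 row. The family was proposed with the comparison of the groups below already known, so its values in that comparison are given as a description and are not tested here. Mice in the EU group received ethynyluridine (EU), a uridine analogue that cells build into new RNA, by daily subcutaneous injection of 50 mg/kg on postnatal days 3 to 5. Control mice received phosphate-buffered saline (PBS) in the same volume on the same days. The hippocampus was collected at postnatal day 36. RNA of both groups passed through a biotin click reaction and streptavidin beads, so the PBS pulldown measures background binding. Nptx1 and Nptxr were lower in EU than in this background, and Nptx2 overlapped between the groups. The levels below are therefore those of pulled-down RNA and do not show that it was labelled. The study asked which RNAs are kept from the days of labelling. No strain or sex is given in the sources used here, and nothing there says that the 3 libraries of a group came from separate animals, so errors measure the spread between these libraries.

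NPTX1 and NPTX2 are secreted proteins and NPTXR is their membrane-anchored relative. All carry a pentraxin domain and join into mixed complexes that bind AMPA-type glutamate receptors and gather them at excitatory synapses, among them the synapses onto parvalbumin interneurons. Nptx2, also called Narp, was found as an immediate early gene, switched on by neuronal activity, while Nptx1 and Nptxr are known as more steadily expressed neuronal genes.

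The libraries held between 39886723 and 58301239 counts. Levels and differences below are relative to library size. Spike-in rows held 0 counts, so the amount of RNA pulled down was not measured. PBS replicate 2 stood apart from the rest: its mean correlation with the other libraries (on log2 CPM, counts scaled to library size, over tested genes) was 0.908, against 0.958 to 0.968, and it detected 19243 genes against 23816 to 26372. Markers of hippocampal principal neurons were detected in every library, as were those of glia. With all 6 libraries, edgeR's quasi-likelihood test passed 0 of 18511 genes at an adjusted p under 0.05, a background share of 0%.

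Nptxr, the membrane-anchored member, was the most abundant of the family and had lower values in EU. It stood at 837, 850.1 and 817 CPM (scaled by trimmed mean of M values, TMM) in EU replicates 1, 2 and 3. In PBS replicates 1, 2 and 3 it stood at 1008, 1090 and 1116 CPM. Every EU library was below every PBS library, and the EU libraries lay closer together than the PBS libraries. The mean of the EU libraries was 835 CPM ± 16.6, and that of the PBS libraries 1071 CPM ± 56.2 (SD, n = 3 each), a fitted log2 fold of -0.36 (SE 0.048), which is 22.1% less. Its lowest count in a library was 34091 reads, so counting error was 0.542% there, under the SD of either group, 1.99% and 5.25% of the mean. Nptxr (ENSMUSG00000022421) is a protein-coding gene on the minus strand of chromosome 15, from 79670552 to 79688967 in GRCm39.

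Nptx1, a secreted member, showed a difference of nearly the same size. Its levels were 518, 466 and 506 CPM in EU replicates 1, 2 and 3, and 640.3, 589 and 640.3 CPM in the PBS replicates. The groups again did not overlap, and PBS replicate 2, the library that stood apart, was the lowest of the PBS values. Its EU mean was 496.5 CPM ± 27.4 and its PBS mean 623 CPM ± 29.4 (SD, n = 3 each), a fitted log2 fold of -0.33 (SE 0.056), which is 20.4% less. Nptx1 (ENSMUSG00000025582) lies on the minus strand of chromosome 11, from 119429545 to 119438579 in GRCm39.

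Nptx2, the activity-regulated member, behaved differently from the other two: its groups overlapped and its libraries were widely spread. It stood at 20.9, 30.8 and 31.6 CPM in EU replicates 1, 2 and 3, and at 19.6, 34.1 and 22.3 CPM in the PBS replicates. The highest and the lowest library were both PBS. Its EU mean was 27.8 CPM ± 5.93 and its PBS mean 25.3 CPM ± 7.70 (SD, n = 3 each), a fitted log2 fold of 0.13 with an SE of 0.214. The sign was not stable, since the log2 fold was -0.025 without PBS replicate 1 and 0.40 without PBS replicate 2. Without EU replicate 1 it was 0.30, and it was 0.05, 0.02 and 0.05 without EU replicate 2, EU replicate 3 and PBS replicate 3. Nptx2 (ENSMUSG00000059991) lies on the plus strand of chromosome 5, from 144482712 to 144494288 in GRCm39.

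**Figure D1:**
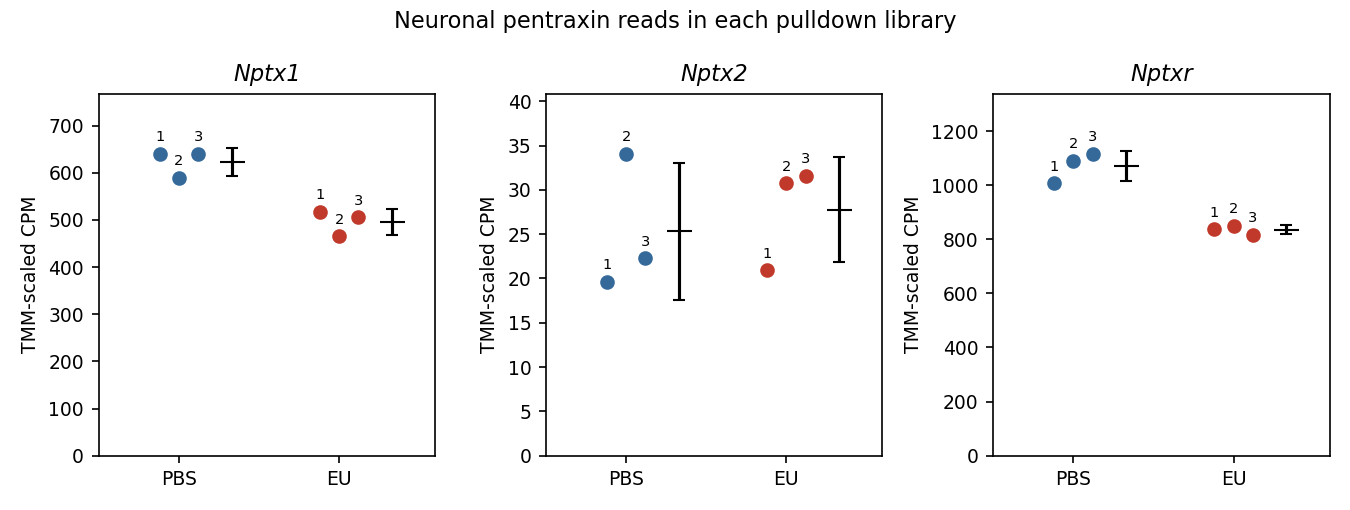
TMM-scaled CPM (vertical axes, from 0) of Nptx1, Nptx2 and Nptxr in each library, numbered by replicate, with the mean and SD of each group (n = 3) as a bar beside the points. The EU libraries lie below all PBS libraries for Nptx1 (466 to 518 against 589 to 640.3 CPM) and Nptxr (817 to 850.1 against 1008 to 1116 CPM), and the groups overlap for Nptx2.

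Because the members were proposed from this comparison, nothing is read from how many of them passed. At the adjusted threshold edgeR passed 0 of 3, with a background of 0% of genes. At an unadjusted p under 0.05 it took Nptx1 and Nptxr, 2 of 3, where the background was 7.88% of genes (4.05% lower and 3.84% higher in EU). DESeq2 passed the same 2 members at an adjusted p under 0.05 (background 2.46%), and limma voom passed Nptxr alone (background 0.0648%). The groups did not overlap for 2 of 3 members, all lower in EU, against 15.7% of all genes in either direction, of which 7.18% were lower and 8.52% higher. The median log2 fold of the 3 members was -0.33, against 0.01 over all genes tested. Of all tested genes, 9.78% had a log2 fold below that of Nptxr and 10.8% below that of Nptx1.

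The direction of Nptx1 and Nptxr was the same in each of the 16 other settings tried. All of these reuse the same libraries, and with groups that do not overlap, leaving out a library could hardly turn the sign. The log2 fold of Nptxr ranged from -0.41 to -0.28, and that of Nptx1 from -0.37 to -0.27. Without PBS replicate 2, the library that stood apart, they were -0.35 and -0.37. The smallest differences of both genes came when transcript GC content and length were corrected for. Their transcripts are rich in G and C: the longest annotated transcript has 59.6% GC for Nptxr, 58.3% for Nptx2 and 54.9% for Nptx1, above 94.8%, 91.5% and 78.2% of tested genes. Genes of a GC content within 2 points of Nptxr (1037 genes at a mean of at least 5 CPM) had a median log2 fold of -0.035. Scaling to the summed counts of 10 pan-neuronal genes in place of TMM gave a log2 fold of -0.35 for Nptxr, -0.32 for Nptx1 and 0.14 for Nptx2.

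**Figure D2:**
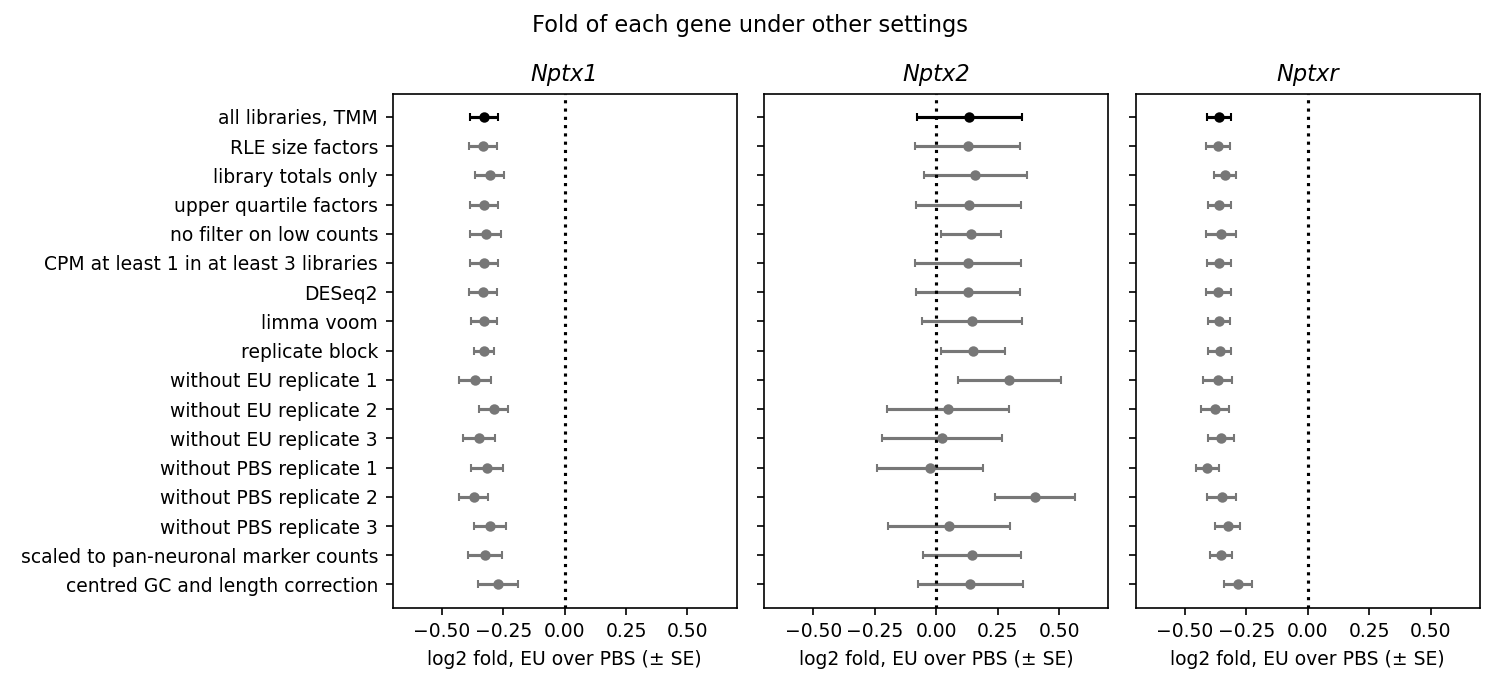
Fitted log2 fold of EU over PBS (horizontal axes, bars are 1 SE) for Nptx1, Nptx2 and Nptxr, with all libraries and TMM scaling in black and each other setting in grey. Nptx1 (-0.37 to -0.27) and Nptxr (-0.41 to -0.28) are below 0 in every setting shown, whereas Nptx2 runs from -0.025 without PBS replicate 1 to 0.40 without PBS replicate 2.

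Levels of different genes were compared per length, as CPM per kb of the longest annotated transcript. Nptxr was the highest at 167 ± 3.31 CPM per kb in EU and 214 ± 11.2 in PBS, and ranked 131 among 18431 genes. Nptx1 followed at 95.2 ± 5.25 CPM per kb in EU and 119.5 ± 5.65 in PBS, rank 284. Nptx2 was far lower at 10.95 ± 2.34 CPM per kb in EU and 9.98 ± 3.04 in PBS, rank 4864 (errors are SD, n = 3 each). This order, Nptxr above Nptx1 above Nptx2, held in each of the 6 libraries, and the ranges of the 3 genes did not touch.

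The transcript levels of Nptxr and Nptx1 kept a similar ratio in both groups, which restates their nearly equal folds. The ratio of Nptxr to Nptx1 (CPM per kb), which does not depend on scaling between libraries, was 1.69, 1.90 and 1.68 in EU replicates 1, 2 and 3. It was 1.64, 1.93 and 1.82 in the PBS replicates. The group means of the ratio, 1.76 ± 0.126 (EU) and 1.79 ± 0.144 (PBS; SD, n = 3 each), differed by less than the SD of either group. As a share of the summed reads of the family, Nptxr accounted for 61.4% ± 1.501 (EU) and 62.3% ± 1.64 (PBS; SD, n = 3 each). The 95% Wilson interval of that share, which covers counting error only, was 60.5% to 61.2% in EU replicate 1 and 63.3% to 64.0% in PBS replicate 2. The order was the reverse for EU replicate 2 (62.7% to 63.5%) and PBS replicate 1 (60.1% to 60.8%). The ratio of Nptx1 to Nptx2 was less even, from 7.36 in EU replicate 2 to 15.9 in PBS replicate 1.

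**Figure D3:**
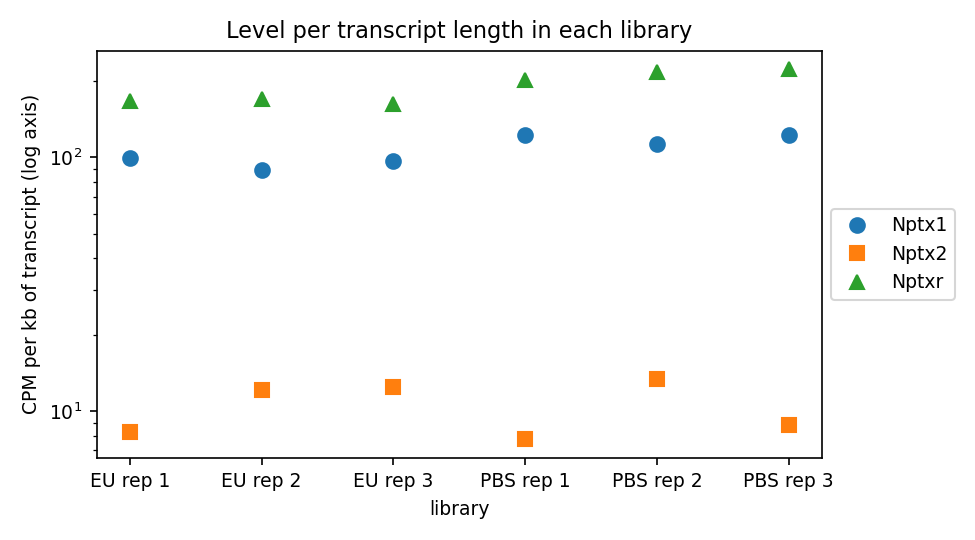
CPM per kb of transcript (log axis) for the 3 genes in each of the 6 libraries. Nptxr (triangles) lies above Nptx1 (circles) in every library by a ratio of 1.64 to 1.93, and Nptx2 (squares) lies between 7.73 and 13.4 CPM per kb.

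The members also differed in how much replicates of one group varied. The within-group SD of log2 CPM was 0.377 for Nptx2, against a median of 0.125 for the 4801 genes within 2-fold of its level, and 98.2% of those genes had a smaller SD. The lowest Nptx2 count was 921 reads, so counting error was at most 3.29% per library, under the group SDs of 21.4% (EU) and 30.4% (PBS) of the mean. Nptxr, with an SD of 0.058, and Nptx1, with 0.075, lay close to genes of their own levels, whose medians were 0.062 and 0.063.

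Other activity-regulated genes varied between the same libraries. The summed level of the 24 listed genes was 1297, 1385 and 1975 CPM in EU replicates 1, 2 and 3, and 866, 1580 and 1540 CPM in the PBS replicates. PBS replicate 1 was the lowest library for this sum and for Nptx2. Nptx2 and the sum did not follow each other throughout: PBS replicate 3 was above EU replicate 2 in the sum and below it in Nptx2. In edgeR 0 of 24 passed, while 3 higher in EU (Pcsk1, Dusp1 and Arl4d, background 3.84%) and 1 lower (Ptgs2, background 4.05%) had an unadjusted p under 0.05. DESeq2 passed 2 as higher, Pcsk1 and Arl4d (background 1.11%). The 20 genes with higher values and the median log2 fold of 0.26 became 14 and 0.03 without PBS replicate 1, and 14 and 0.07 without EU replicate 3. Egr1, an activity-induced transcription factor, ranged from 202 to 367 CPM in EU and from 113 to 284 CPM in PBS. Arc, which drives AMPA receptor endocytosis, ranged from 167 to 394 and from 85.7 to 229 CPM. The nuclear receptor Nr4a3 (log2 fold -0.36, SE 0.172) and the scaffold gene Homer1 (0.15, SE 0.108) also overlapped between groups.

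**Figure D4:**
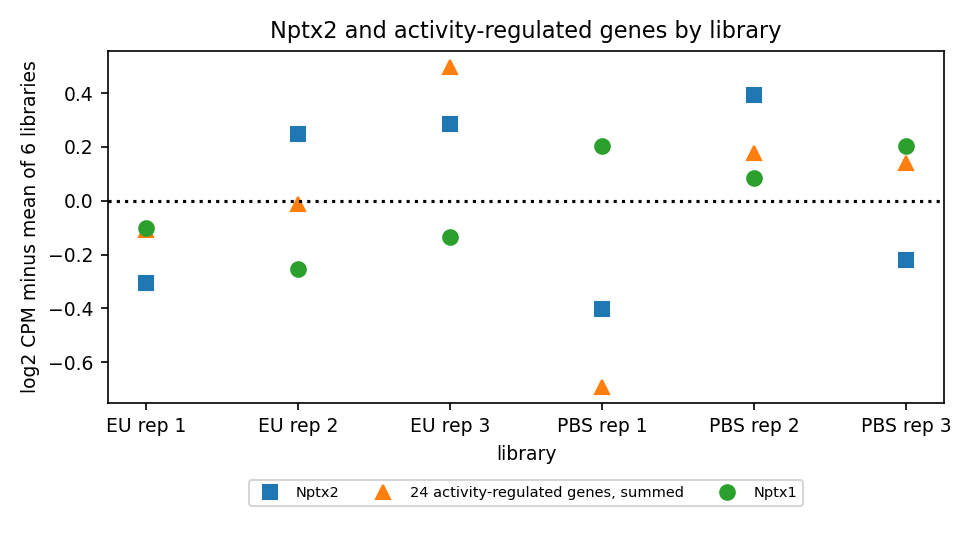
Deviation of log2 CPM from the mean of the 6 libraries (vertical axis) for Nptx2, Nptx1 and the sum of 24 activity-regulated genes. PBS replicate 1 is lowest for Nptx2 (19.6 CPM) and for the sum (866 CPM), while for Nptx1 all PBS libraries lie above all EU libraries.

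The AMPA receptor subunits, which the pentraxin complexes bind, had no common direction. In edgeR 0 of 4 passed, and 1 in each direction (Gria1 lower, Gria4 higher) had an unadjusted p under 0.05 (background 4.05% lower, 3.84% higher). The median log2 fold of the 4 AMPA subunits was 0.01, the same as over all genes. Limma voom passed 0 genes of the 6 lists of partner, activity-regulated and synaptic genes (background 0.0648%). Of the 63 tested genes of these 6 lists together, 23.8% had an unadjusted p under 0.05 in edgeR (background 7.88%). Their median log2 fold was 0.14. The lists were chosen with earlier results of these data known. Gria1 stood at 857, 799.8 and 823 CPM in EU and at 922, 903 and 954 CPM in PBS. All EU values were below all PBS values, and the log2 fold was -0.16 ± 0.045 (SE), with an adjusted p of 0.333 in edgeR and 0.0171 in DESeq2. Gria4, the subunit enriched in parvalbumin interneurons, stood at 54.0, 59.1 and 57.9 CPM in EU and at 43.2, 47.5 and 50.5 CPM in PBS. Here all EU values were above all PBS values, and the log2 fold was 0.28 ± 0.078 (SE), with an adjusted p of 0.362 in edgeR and 0.0876 in DESeq2. Gria2, which sets calcium permeability, and Gria3 overlapped between groups, with log2 folds of 0.04 (SE 0.050) and -0.02 (SE 0.068).

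Genes of pentraxin processing and binding gave 0 calls among 5 in edgeR, with 1 higher in EU at an unadjusted p under 0.05 (background 3.84%). Adam17, the protease that sheds NPTXR from the membrane, averaged 15.6 CPM ± 1.17 over EU libraries and 14.4 CPM ± 0.241 over PBS libraries (SD, n = 3 each; log2 fold 0.12, SE 0.110). The complement subunit gene C1qb, made by microglia, stood at 28.2 CPM ± 0.791 and 21.9 ± 1.81 (SD, n = 3 each). All EU values were above all PBS values for Adam17, C1qa and C1qb, 3 of 5 genes, against 8.52% of all genes. The log2 fold of C1qb was 0.36 ± 0.094 (SE), with an adjusted p of 0.308 in edgeR and 0.0445 in DESeq2. Its partners C1qa (log2 fold 0.26, SE 0.150) and C1qc (0.01, SE 0.110) and the taipoxin-binding protein gene Rcn2 (-0.001, SE 0.063) had edgeR adjusted p from 0.738 to 0.999.

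The other pentraxin genes were scarce. Of 8 listed genes, 4 had enough reads to be tested and 3 (Apcs, Mptx1 and Mptx2) were at 0 counts in all libraries. Svep1 and Adgrg6, large proteins that contain a pentraxin domain, had EU means of 2.82 ± 0.650 and 3.07 ± 0.814 CPM and PBS means of 2.72 ± 0.574 and 2.17 ± 0.361 CPM (SD, n = 3 each). The long pentraxin Ptx3 and Ptx4 had group means of at most 0.534 CPM. In edgeR 0 of these 4 passed, also at an unadjusted p under 0.05 (background 7.88%), and DESeq2 gave them no adjusted p.

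Among 16 other secreted or cell-surface organisers of excitatory synapses, directions were mixed. In edgeR 0 passed, while 5 higher (background 3.84%) and 2 lower (background 4.05%) had an unadjusted p under 0.05. DESeq2 passed 4 as higher, Sparcl1, Lgi2, Cbln1 and Cbln4 (background 1.11%), and 1 as lower, C1ql2 (background 1.35%). Sparcl1, the astrocyte protein hevin, averaged 1321 CPM ± 28.0 over EU libraries and 1180 CPM ± 35.4 over PBS libraries (SD, n = 3 each; log2 fold 0.16, SE 0.041). The adhesion protein gene Nptn (-0.09, SE 0.060), Sparc (-0.15, SE 0.103) and C1ql3 (-0.03, SE 0.096) overlapped between groups. Of 10 genes of perineuronal nets and parvalbumin cells, 0 passed in edgeR or DESeq2. Of these, 1, Hapln4, was lower at an unadjusted p under 0.05 (background 4.05%). The net proteoglycan Ncan and the cross-linker Tnr had log2 folds of 0.03 (SE 0.076) and -0.02 (SE 0.056), and Gad1 and the potassium channel gene Kcnc1 had -0.01 (SE 0.058) and -0.04 (SE 0.065).

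**Figure D5:**
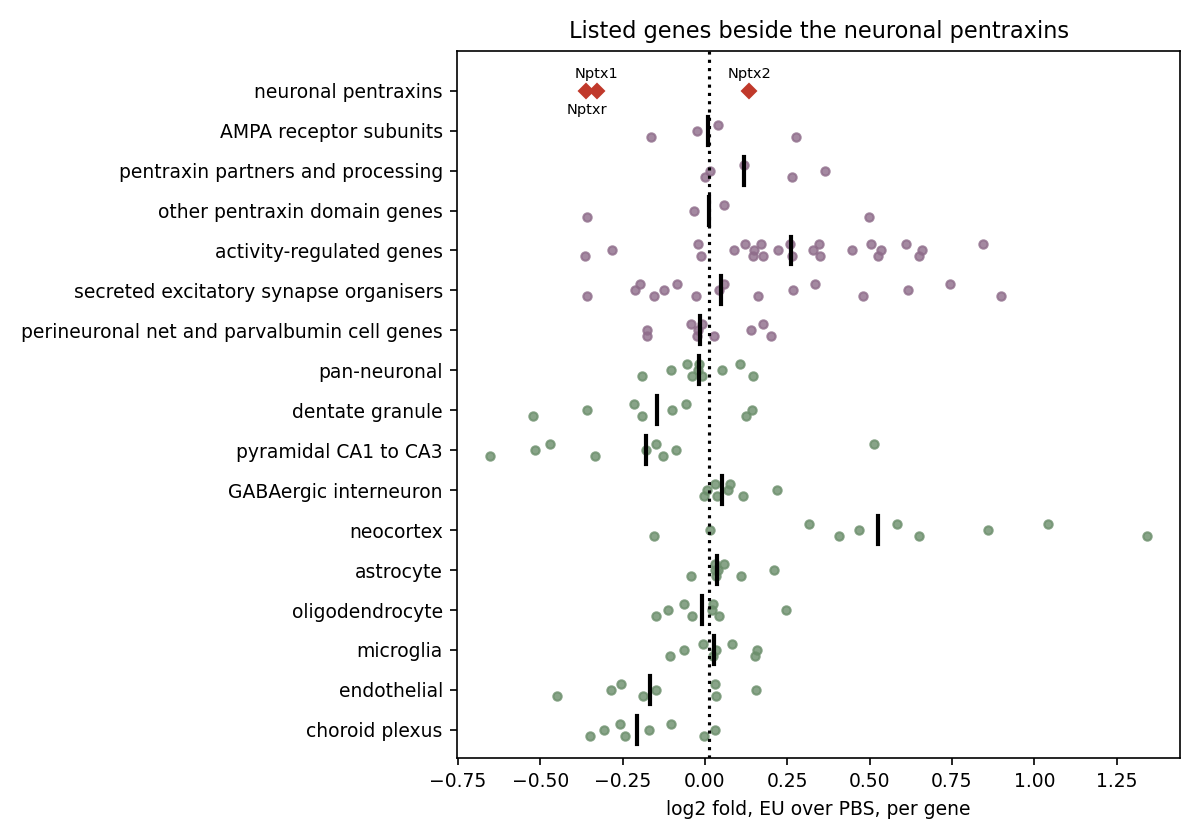
Log2 fold of EU over PBS (horizontal axis) of each tested gene, by list, with the median of a list as a black bar, the 3 neuronal pentraxins as diamonds and the median of all tested genes (0.01) as a dotted line. The median of the AMPA receptor list is at 0.01, that of the pyramidal markers at -0.18 and that of the neocortex markers at 0.53.

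Markers of neurons and neighbouring tissue are given beside Nptx1 and Nptxr. In bulk RNA, fewer cells of a type and less RNA per cell cannot be told apart. Pyramidal markers of CA1 to CA3 (9 of 9 tested, none at 0) summed to 790 to 901 CPM in EU and 852 to 944 CPM in PBS, with 8 lower values in EU and a median log2 fold of -0.18. Examples were Neurod6 (-0.18, SE 0.067) and Fibcd1 (-0.52, SE 0.083), while Wfs1 had 0.51 (SE 0.195). Dkk3, the most abundant of the 9, had -0.09 (SE 0.084) with overlapping groups. At an unadjusted p under 0.05, 4 pyramidal markers were lower (background 4.05%) and 1, Wfs1, was higher (background 3.84%), and DESeq2 passed 2 as lower, Fibcd1 and Bok (background 1.35%). The pyramidal sums overlapped between the groups, as did the dentate sums. Dentate granule markers (8 of 8 tested) summed to 490 to 507 CPM in EU and 489 to 641 CPM in PBS, with 6 lower values and a median of -0.145, or -0.01 without PBS replicate 1. Of these, 3 (Prox1, C1ql2 and Plk5) were lower at an unadjusted p under 0.05 (background 4.05%). DESeq2 passed C1ql2 (background 1.35%), which is also in the list of synapse organisers. Neocortex markers (10 of 10 tested) summed to 590 to 723 CPM in EU and 451 to 563 CPM in PBS, with 9 higher values and a median of 0.53, and Rspo1 was at 0 in PBS replicate 2. The neocortex sums did not overlap between the groups. Tshz2 (0.65, SE 0.152), Tbr1 (0.41, SE 0.109) and Cux2 (0.58, SE 0.134) were among the 7 higher at an unadjusted p under 0.05 (background 3.84%). Rasgrf2 had 0.02 (SE 0.063). DESeq2 passed 5 neocortex markers as higher (background 1.11%). The part of these markers in the values of Nptx1 and Nptxr was not tested.

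Pan-neuronal genes had a median log2 fold closer to 0 than the folds of Nptx1 and Nptxr. Their sum was 6228 to 6426 CPM in EU and 6024 to 6551 CPM in PBS, and the median log2 fold of the 10 genes was -0.02. One of them, the ubiquitin hydrolase gene Uchl1, had all EU values below all PBS values, with a log2 fold of -0.19 ± 0.056 (SE). Its adjusted p was 0.374 in edgeR and 0.0372 in DESeq2. Map2, the most abundant of the 10, went the other way, with all EU values above all PBS values (log2 fold 0.05, SE 0.037). Groups thus did not overlap for 1 gene lower (background 7.18%) and 1 higher (background 8.52%). Medians of the interneuron, astrocyte, oligodendrocyte and microglia lists (8 genes each) lay between -0.01 and 0.05. That of the endothelial list was -0.17, or -0.085 without PBS replicate 2. The choroid plexus median of -0.21 had no stable direction: it was 0.40 without PBS replicate 1, 0.20 without EU replicate 3, and -0.58, -0.42, -0.32 and -0.47 without EU replicate 2, EU replicate 1, PBS replicate 2 and PBS replicate 3. The choroid plexus sum ranged from 765 to 5415 CPM over the libraries. Over all marker lists (85 genes tested) 0 passed in edgeR, 18 had an unadjusted p under 0.05 (background 7.88%), DESeq2 passed 9 (background 2.46%) and limma voom 0 (background 0.0648%). Leaving out PBS replicate 2, the neocortex gene Tshz2 passed in edgeR.

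Around the loci, the tested neighbours of Nptxr had smaller differences than Nptxr. Cbx6, a Polycomb gene 19130 bases from Nptxr on the same strand, averaged 422 CPM ± 20.6 over EU libraries and 434 CPM ± 16.1 over PBS libraries (SD, n = 3 each; log2 fold -0.04, SE 0.053). Dnal4, 8502 bases from Nptxr, had a log2 fold of -0.18 (SE 0.118) with overlapping groups. One row, Npcd, overlaps the Nptxr locus on the same strand and held a mean of 8.5 reads per library, too few to be tested. Reads that fall in exons of both rows cannot be assigned with certainty. Endov, 27282 bases from Nptx1, had a log2 fold of -0.11 (SE 0.105), and the opposite-strand noncoding row Gm11762, 877 bases away, held a mean of 35.7 reads. For Nptx2 the table held no other gene within 50000 bases. These neighbours were chosen by position after the values of the members were known.

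Genes whose profile over the 6 libraries was most like that of a member were found by the root mean square (RMS) difference of centred log2 CPM, among 11247 genes at a mean of at least 5 CPM. For Nptxr they were the kinase gene Cdk14 (RMS difference 0.033), the spliceosomal Sm protein gene Snrpe (0.034) and the axon guidance ligand gene Slit3 (0.044), against a median of 0.220 over all those genes. For Nptx1 they were Armc6 (0.032), Arhgef28 (0.034) and Wscd2 (0.035), against a median of 0.214. For Nptx2 the nearest were farther off: Pop1, a subunit of ribonuclease P (0.108), 5530601H04Rik (0.120) and the carbonic anhydrase gene Car7 (0.126), against 0.340. None of these 3 was in the list of activity-regulated genes. All genes named by likeness lie below the median difference by selection. Those named for Nptx1 and Nptxr each had all EU values below all PBS values, so their likeness in part repeats the group difference.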

How the data were processed

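The authors deposited raw read counts per gene for 6 libraries. Per the submitters' processing notes, the tools were bcl2fastq 2.20.0, STAR 2.7.10b and, for counting, featureCounts 2.0.1, on GRCm39. Which annotation, strand setting and feature type were used is not given in the sources used here. Reads shared with overlapping or antisense genes are therefore uncertain. The 92 spike-in rows (ERCC) held 0 counts and were left out. Groups came from the sample titles.

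All genes were tested together with edgeR 4.0.16 (R 4.3.3) by the quasi-likelihood test, two-sided, after filterByExpr and TMM scaling, with only treatment in the model and p-values adjusted by Benjamini-Hochberg at 0.05. The standard error of a log2 fold was taken as its size over the root of F. DESeq2 1.42.0 and limma 3.58.1 (voom) were alternatives, beside other scalings and filters, a replicate block and leaving out each library. Scaling to pan-neuronal counts and the GC and length correction (loess per library, span 0.5, median set to 0) were added after the data were seen. Libraries were not copies: the lowest chi-square per degree of freedom between a pair was 7.16.

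Transcript lengths and GC content came from the longest GENCODE M21 transcript, found for 99.6% of tested genes by Ensembl identifier. It describes GRCm38 and gave no coordinates. Named genes were the members, the AMPA receptor subunits, from the lists genes among their 4 most abundant, and 3 genes per member by likeness. Other genes named beside a count, with Adam17, C1ql2, Uchl1 and the neighbours of the loci, were chosen after their values were seen. The members and lists were chosen with earlier results of these data known. Plots used matplotlib 3.10.9 (Python 3.11.15). Intervals from counts cover counting error only, since reads carried no stated molecular identifiers.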

Additional observations from a re-analysis of the deposited data

How the results depend on the processing

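Nptx1 kept its sign in 16 of 16 alternatives, and so did Nptxr. These alternatives share the same libraries, and the groups of both genes do not overlap, so the sign had little room to turn. Leaving out 1 library at a time gave log2 folds of -0.369 to -0.289 for Nptx1, -0.408 to -0.326 for Nptxr and -0.025 to 0.402 for Nptx2, which turned sign without PBS replicate 1. The GC and length correction moved Nptxr to -0.284. The difference in the Nptxr share (EU minus PBS, -0.830 percentage points) ranged from -1.74 to -0.156, and the log2 ratio of Nptxr to Nptx1 per length (0.825) from 0.801 to 0.848, without 1 library.

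Against 0 genes passed in the whole table, 0 of the members and 0 of the 67 pathway genes, edgeR without a filter on low counts passed 248 genes, 2 members (Nptx1 and Nptxr) and 10 pathway genes. DESeq2 passed 288, 2 and 9, and limma voom 12, 1 and 0. Leaving out 1 library gave 0 to 20 genes (20 without PBS replicate 2) and 0 members and 0 pathway genes in each case. The cause of these changes was not tested.

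A replicate block in edgeR passed 18 genes, among them 2 members, Nptx1 and Nptxr, and 0 pathway genes. The block rests on the number alone, and the design does not state a pairing. Deviations of same-numbered libraries correlated at 0.047, 0.035 and 0.090, and those of other pairs at -0.059 to -0.001. Each library correlated best with its own number in the other group, but all these correlations are small and do not establish a pairing. The design has 3 libraries a group, and the depth of 39886723 counts or more leaves counting error under the spread between libraries for all members.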
